A study of Mus musculus with 16 samples.

Results

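The genes described here lie around Parp2 on mouse chromosome 14: Ccnb1ip1, Rnase12, Pnp, Osgep, Mettl17, Rab2b, Supt16, Rpgrip1 and Tox4. They make up 9 of the 19937 genes that had at least 1 row carrying their symbol alone, and all 9 were measured. Each gene was represented by the row of its symbol with the highest mean over the 16 arrays, which mattered only for Osgep, the gene among them with a second row. The genes were chosen by their place around Parp2 and by their genotype differences in LSK and MP cells on these arrays, so their genotype differences are given as a description, without a test.

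The levels are log2 intensities from Affymetrix Mouse Gene 1.0 ST arrays, and the series asks how Parp-2-/- and wild-type (WT) blood stem and progenitor cells differ, at rest and after gamma radiation. The bone marrow cells were LSK cells (lineage-negative, Sca1-positive and c-Kit-positive, the fraction with the stem cells) or MP cells (myeloid progenitors, lineage-negative, Sca1-negative and c-Kit-positive). The 8 groups were irradiated Parp-2-/- LSK, irradiated WT LSK, unirradiated Parp-2-/- LSK and unirradiated WT LSK cells, and the same 4 groups of MP cells. All mice were labelled C57BL/6J, irradiated cells were taken 2.5 hours after 5 Gy, and each group had 2 arrays of 1 pool each, every pool from at least 3 mice. How the Parp-2 allele was made, and in which strain, is not stated by the labels. Nothing in the labels says how the pools were drawn, so the spread between them may be partly technical.

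Poly(ADP-ribose) polymerase 2, the product of Parp2, binds broken DNA and marks proteins there with poly(ADP-ribose). Its gene lies in a crowded stretch with unrelated neighbours, and its promoter is known to be shared with Rpph1, the RNA of ribonuclease P. Ccnb1ip1 encodes a RING-finger protein, also called HEI10, that is known for its part in meiotic crossovers of the germ line and for binding cyclin B. Most of the others serve general cell functions: Osgep is the catalytic subunit of the KEOPS complex, which modifies transfer RNA, and Pnp is purine nucleoside phosphorylase, a purine salvage enzyme. Mettl17 acts in the assembly of the mitochondrial ribosome, Supt16 is a subunit of the histone chaperone FACT, Tox4 is a subunit of the PTW/PP1 phosphatase complex, and Rab2b is a small GTPase of the Golgi. Rpgrip1 is a protein of the photoreceptor cilium, and Rnase12 belongs to the secreted ribonuclease A family.

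In the order of measured genes along the chromosome, Ccnb1ip1 was the 2nd gene before Parp2, with Rpph1 between them. Osgep was the 2nd after it, Pnp the 5th, Rnase12 the 9th, Mettl17 the 24th, Rpgrip1 the 34th, Supt16 the 35th, Rab2b the 38th and Tox4 the 39th. This order is that of the RefSeq annotation of GRCm38.p6. The start regions of Parp2 and of the 4 neighbours with the widest genotype gaps in MP cells are shown so that their letters can be compared. They are RefSeq windows of GRCm38.p6 of 300 bases, 250 before to 50 after the start site: chr14:50795679-50795978 for Ccnb1ip1 (minus strand), chr14:50807666-50807965 for Parp2 (plus strand), chr14:50924844-50925143 for Osgep (minus strand), chr14:50944053-50944352 for Pnp (plus strand) and chr14:51057193-51057492 for Rnase12 (minus strand). Capitals mark the motifs searched on both strands: GCATGCGC, which is the core of the NRF1 motif, the E-box CACGTG, the CCAAT box, the GC box GGGCGG, the TATA box TATAAA and the octamer ATTTGCAT.
Ccnb1ip1: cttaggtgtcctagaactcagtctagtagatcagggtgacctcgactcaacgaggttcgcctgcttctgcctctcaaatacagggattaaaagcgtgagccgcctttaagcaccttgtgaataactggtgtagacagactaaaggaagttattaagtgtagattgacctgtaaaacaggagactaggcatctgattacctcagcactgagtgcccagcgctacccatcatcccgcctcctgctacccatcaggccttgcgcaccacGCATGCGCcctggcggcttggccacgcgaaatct
Parp2: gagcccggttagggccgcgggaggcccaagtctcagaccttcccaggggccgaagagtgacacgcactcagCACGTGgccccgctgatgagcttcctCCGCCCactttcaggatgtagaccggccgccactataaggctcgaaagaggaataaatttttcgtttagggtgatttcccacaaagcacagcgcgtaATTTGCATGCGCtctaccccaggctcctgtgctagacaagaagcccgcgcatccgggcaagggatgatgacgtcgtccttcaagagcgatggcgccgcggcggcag
Osgep: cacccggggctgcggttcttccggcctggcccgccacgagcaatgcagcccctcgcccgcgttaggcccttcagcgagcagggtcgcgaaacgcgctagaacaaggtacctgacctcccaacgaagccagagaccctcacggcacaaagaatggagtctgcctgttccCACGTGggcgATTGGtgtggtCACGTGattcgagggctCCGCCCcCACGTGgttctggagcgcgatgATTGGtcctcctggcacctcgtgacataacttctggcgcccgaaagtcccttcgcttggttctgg
Pnp: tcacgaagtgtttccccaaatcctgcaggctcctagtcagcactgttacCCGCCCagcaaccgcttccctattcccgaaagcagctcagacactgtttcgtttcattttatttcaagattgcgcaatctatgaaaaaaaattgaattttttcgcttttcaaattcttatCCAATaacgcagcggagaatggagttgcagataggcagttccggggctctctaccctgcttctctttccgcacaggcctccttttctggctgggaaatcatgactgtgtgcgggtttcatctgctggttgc
Rnase12: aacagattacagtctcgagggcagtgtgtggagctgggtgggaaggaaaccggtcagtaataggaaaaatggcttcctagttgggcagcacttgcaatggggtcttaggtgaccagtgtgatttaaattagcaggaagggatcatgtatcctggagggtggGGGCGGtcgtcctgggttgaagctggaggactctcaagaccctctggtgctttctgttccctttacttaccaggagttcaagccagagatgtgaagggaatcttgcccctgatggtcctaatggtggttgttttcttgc

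GCATGCGC, the rarest but one of these motifs, stood in 2.71% of the 32851 RefSeq windows of the same length, and among the 9 genes only in that of Ccnb1ip1, at position 17 counted from the start site. The Parp2 window held it as well, at position -52, where it overlaps an octamer (1.74% of windows). CACGTG (7.15% of windows) occurred 3 times for Osgep and once each for Supt16 and Parp2. CCAAT (37.4%) occurred in the windows of 5 of the 9 genes and GGGCGG (35.7%) in those of 6, while TATAAA (13.6%) occurred in 1, that of Rpgrip1. The Rnase12 window held 1 GC box and no other of these motifs. A match is a run of letters in a window, and no binding was measured.

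Parp2 checks the genotype labels. It averaged 6.26 ± 0.45 on the 4 Parp-2-/- LSK arrays and 7.68 ± 0.26 on the 4 WT LSK arrays (SD), and 6.84 ± 0.18 on the 4 Parp-2-/- MP arrays and 8.28 ± 0.21 on the 4 WT MP arrays. No Parp-2-/- array reached a WT array of its cell type. The differences were -1.42 ± 0.18 in LSK cells and -1.44 ± 0.18 in MP cells (± SE), with adjusted p of 0.0422 and 0.0252 in the limma fit of all 8 groups. Over the 22 alternative settings these adjusted p ranged between 0.0106 and 0.473 in LSK cells and between 0.0106 and 0.245 in MP cells, and were under 0.05 in 12 and 9 of them. The cell types matched their labels: the mean of the 6 measured of 8 LSK markers ran between 7.71 and 8.19 on LSK arrays and between 6.16 and 6.73 on MP arrays, and that of 9 myeloid progenitor markers between 6.64 and 7.12 on LSK arrays and between 8.55 and 8.96 on MP arrays. Medians of the 16 arrays ran between 4.74 and 4.92, and a level below its array's median is not shown to be above background.

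Ccnb1ip1 had a high level on the Parp-2-/- MP arrays and a level below the array median on all 12 others. In irradiated MP cells it read 6.93 and 6.91 in the Parp-2-/- pools, against 3.31 and 3.47 in the WT pools. In unirradiated MP cells it read 6.83 and 7.38 in the Parp-2-/- pools, against 3.30 and 3.29 in the WT pools. The 4 Parp-2-/- and 4 WT arrays were separated by a gap of 3.36 log2 units. The means were 7.01 ± 0.25 in Parp-2-/- and 3.35 ± 0.09 in WT MP cells (SD, n = 4), a difference of 3.67, the largest absolute genotype difference among the 22961 tested rows in MP cells. Because WT levels were not shown above background, the fold is a lower bound: against the medians of the WT arrays, Ccnb1ip1 was at least 4.67-fold higher in Parp-2-/- MP cells. These are bulk samples of sorted cells, in which more RNA per cell and more cells with the RNA cannot be told apart.

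In LSK cells the same gene differed less. It read 4.49 and 4.51 in irradiated Parp-2-/- pools, against 3.45 and 3.89 in irradiated WT pools. It read 3.96 and 4.02 in unirradiated Parp-2-/- pools, against 3.77 and 3.58 in unirradiated WT pools. The genotypes did not overlap, with a gap of 0.0754 and means of 4.25 ± 0.29 in Parp-2-/- and 3.67 ± 0.20 in WT LSK cells (SD, n = 4). All 8 arrays lay below their medians, so the size of the difference, 0.58, is not measured. Of all tested rows 0.0261% were without overlap in both cell types in the same direction, and of the 9 genes Ccnb1ip1 alone was.

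Over the 8 groups the mean level of Ccnb1ip1 was highest in unirradiated Parp-2-/- MP cells (7.11 ± 0.39, SD of 2 pools), followed by irradiated Parp-2-/- MP cells (6.92 ± 0.01). These neighbours in the order overlapped. The next groups were irradiated Parp-2-/- LSK (pools at 4.49 and 4.51) and unirradiated Parp-2-/- LSK cells (3.99 ± 0.04). The 4 WT groups ran between 3.30 and 3.67, and the adjacent WT groups of LSK cells could not be told apart by their pools. The plot of levels on every array shows Ccnb1ip1 and the other 8 genes.

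**Figure D1:**
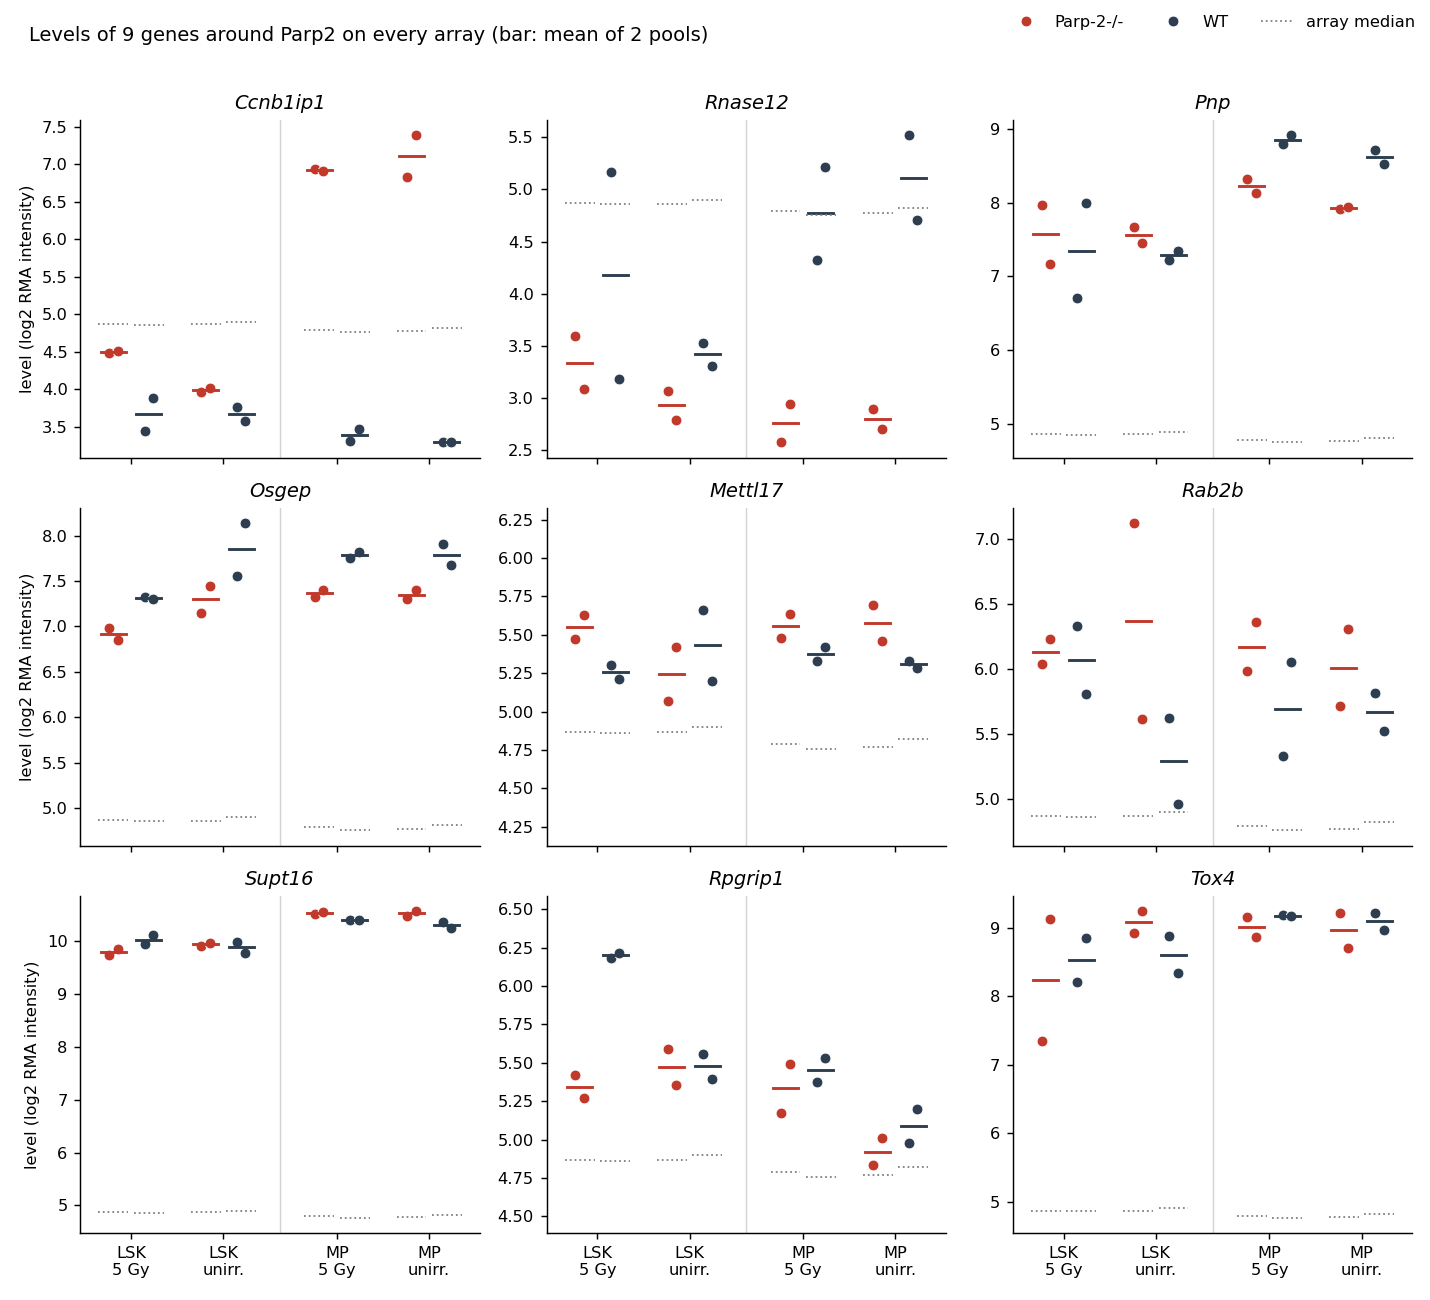
Levels of the 9 genes on every array, in log2 RMA intensity, with 1 point per pool, a bar for the mean of the 2 pools of a group and a dotted line for the mean median of the group's arrays. Ccnb1ip1 stands at 6.83 to 7.38 on the 4 Parp-2-/- MP arrays, and Rnase12 at 2.57 to 2.94 there.

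Rnase12 showed the opposite pattern in MP cells. It read 2.57 and 2.94 in irradiated Parp-2-/- MP pools, against 4.32 and 5.22 in irradiated WT MP pools. It read 2.89 and 2.70 in unirradiated Parp-2-/- MP pools, against 5.52 and 4.71 in unirradiated WT MP pools. Every Parp-2-/- array lay below every WT array, with a gap of 1.38 and a nominal difference of -2.17. The WT levels straddled the array medians and the Parp-2-/- levels lay well under them, so the bound on the fold is small, at least 1.12-fold lower. In LSK cells the genotypes overlapped: 3.59 and 3.09 in irradiated Parp-2-/- against 5.17 and 3.18 in irradiated WT pools, and 3.07 and 2.79 in unirradiated Parp-2-/- against 3.53 and 3.31 in unirradiated WT pools. The LSK difference of -0.66 rests largely on 1 irradiated WT array, pool 1, the only LSK array on which Rnase12 exceeded its array's median. Without that array it was -0.17.

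Pnp and Osgep were expressed in every group. Pnp read 8.32 and 8.13 in irradiated Parp-2-/- MP pools, against 8.79 and 8.91 in irradiated WT MP pools, and 7.92 and 7.94 in unirradiated Parp-2-/- pools, against 8.71 and 8.51 in unirradiated WT pools. The MP genotypes did not overlap, and the means were 8.08 ± 0.19 in Parp-2-/- and 8.73 ± 0.17 in WT cells (SD, n = 4), a difference of -0.65 or 1.57-fold. In LSK cells Pnp overlapped, with 7.97 and 7.17 in irradiated Parp-2-/- against 6.70 and 7.99 in irradiated WT pools, and 7.67 and 7.45 in unirradiated Parp-2-/- against 7.22 and 7.35 in unirradiated WT pools. The difference in LSK cells was 0.25 and turned negative in 1 of 22 alternative settings, where it was -0.07. A further row that carries both Pnp and Pnp2 was not used.

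Osgep was lower in Parp-2-/- MP cells, at 7.32 and 7.41 in irradiated Parp-2-/- against 7.75 and 7.82 in irradiated WT pools, and at 7.30 and 7.40 in unirradiated Parp-2-/- against 7.91 and 7.67 in unirradiated WT pools. The MP arrays did not overlap, and the difference was -0.43, or 1.35-fold. In LSK cells it read 6.98 and 6.85 in irradiated Parp-2-/- against 7.32 and 7.30 in irradiated WT pools, and 7.15 and 7.45 in unirradiated Parp-2-/- against 7.56 and 8.13 in unirradiated WT pools. Within each irradiation state the LSK genotypes were apart, but the 4 Parp-2-/- and 4 WT arrays overlapped across states, and the difference was -0.47. The second Osgep row, dimmer by its mean, gave -0.26 in LSK and -0.22 in MP cells.

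Of the 5 more distant genes, Supt16 and Mettl17 were without overlap in MP cells. Supt16 ran between 10.48 and 10.57 on Parp-2-/- MP arrays and between 10.25 and 10.41 on WT MP arrays, with no overlap and a difference of 0.17, or 1.13-fold. Mettl17 ran between 5.46 and 5.70 on Parp-2-/- MP arrays and between 5.29 and 5.42 on WT MP arrays, likewise with no overlap, and differed by 0.23. Rab2b differed by 0.41, close to the size of the Osgep difference, but its Parp-2-/- arrays (5.71 to 6.36) overlapped its WT arrays (5.33 to 6.06). Tox4 differed by -0.15 and Rpgrip1 by -0.14, both with overlapping arrays. In LSK cells all 5 overlapped. Their differences there were 0.57 for Rab2b, 0.09 for Tox4, 0.06 for Mettl17, -0.09 for Supt16 and -0.43 for Rpgrip1.

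Rpgrip1 in LSK cells was uneven between irradiation states. In irradiated LSK cells it read 5.42 and 5.27 in Parp-2-/- pools, against 6.18 and 6.22 in WT pools. In unirradiated LSK cells it read 5.59 and 5.36 in Parp-2-/- pools, against 5.56 and 5.40 in WT pools. The genotypes were thus apart after radiation and overlapped without it. Rab2b in LSK cells had a wide spread, with 7.12 and 5.62 in the unirradiated Parp-2-/- pools against 5.62 and 4.96 in the unirradiated WT pools. Tox4 was spread mainly by 1 irradiated Parp-2-/- LSK pool, at 7.34, against 9.13 in the other.

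Counted together, 3 of the 9 genes had all Parp-2-/- MP arrays above all WT MP arrays (Ccnb1ip1, Mettl17 and Supt16), where 0.954% of all tested rows did. Another 3 had them all below (Rnase12, Pnp and Osgep), where 1.15% of rows did. In LSK cells 1 of the 9 was above (Ccnb1ip1; 1.34% of rows) and 0 were below (1.36% of rows). The median absolute difference of the 9 genes was 0.431 in LSK cells, beside 0.126 over all rows, and 0.410 in MP cells, beside 0.0774 over all rows. The genes were chosen around this contrast, so nothing is read from these counts.

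**Figure D2:**
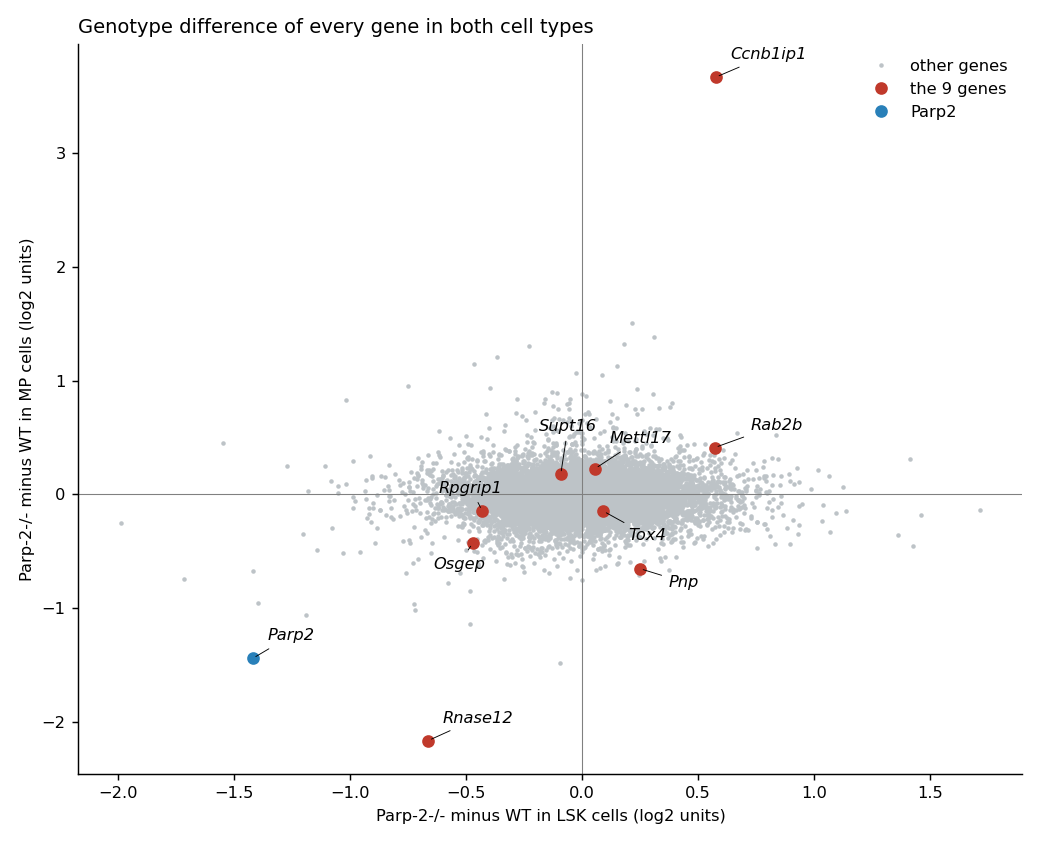
Genotype difference (Parp-2-/- minus WT, log2 units, mean of both irradiation states) in LSK cells on the x axis and in MP cells on the y axis, with 1 point per gene. Ccnb1ip1 (0.58 and 3.67) and Rnase12 (-0.66 and -2.17) lie at the ends of the MP axis, and the other 7 genes lie among the rest or at their edge.

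Markers of other cells were set beside these differences. The mature erythroid, macrophage, B cell, T and NK cell, dendritic and stromal lists had 0 genes without overlap between genotypes in either cell type. Of all tested rows 2.7% were without overlap in LSK cells and 2.11% in MP cells. In lists this short, counts of 0 or 1 cannot be told from those shares, so nothing is read from them. All 9 myeloid progenitor markers overlapped in MP cells. Mpo, Elane, Ms4a3, Prtn3 and Ctsg differed by between -0.55 and -0.18 there, and Gata1, Klf1, Car1 and Epor by between 0.18 and 0.43. In MP cells the mean of 5 mature neutrophil markers ran between 4.07 and 4.29 on Parp-2-/- arrays and between 4.38 and 4.52 on WT arrays. S100a8 carried that gap: it alone of the 5 had all Parp-2-/- arrays below all WT arrays, with means of 5.75 in Parp-2-/- and 7.23 in WT. The other 4 overlapped, at 0.06 for Ly6g, 0.10 for Camp, 0.12 for Ltf and -0.06 for Ngp, and Ly6g and Ltf lay below the array median on all 16 arrays. The 4 mast cell and basophil markers averaged between 5.25 and 5.58 on Parp-2-/- MP arrays and between 5.48 and 6.29 on WT MP arrays, with 1 of 4, Mcpt8, entirely below. Fcer1a differed by 0.14 in MP cells and lay below the array median on all 16 arrays. Cpa3 had the widest difference of these 4, with means of 6.62 in Parp-2-/- and 7.76 in WT MP cells, and overlapped. In LSK cells the same list averaged between 4.23 and 4.72 on Parp-2-/- arrays and between 4.59 and 5.40 on WT arrays. Ms4a2 was entirely below there, at means of 3.28 in Parp-2-/- and 4.05 in WT. Both means lay under every array median, so the size of that difference is not measured. The 4 measured of 5 megakaryocyte markers averaged between 5.95 and 6.20 on Parp-2-/- MP arrays and between 6.13 and 6.34 on WT MP arrays, with Pf4 entirely below, at means of 8.83 in Parp-2-/- and 9.11 in WT. Their part in the results was not tested. The germ cell markers Ddx4, Sycp3, Sycp1, Dazl and Stra8 lay below the array median on all 16 arrays, with means between 2.69 and 3.08 on Parp-2-/- MP arrays and between 2.70 and 2.92 on WT MP arrays.

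To place the 9 genes in their neighbourhood, the 40 nearest measured genes on each side of Parp2 were taken in order. Of these 80 genes, 4 were entirely above and 5 entirely below in Parp-2-/- MP cells, and the 9 chosen genes supplied 6 of them. Among the 71 others, 1 was above and 2 below in MP cells (4.225%, beside 2.11% of all tested rows) and 1 was below in LSK cells (1.408%, beside 2.7%). The largest MP differences among these 71 were -0.50 and 0.56, and both belonged to genes whose arrays overlapped, Rpph1 and Rnase2a. In LSK cells these 71 ran between -1.08 and 0.40, and the lowest, the ribonuclease gene Rnase6, differed by more than any of the 9 genes there. Its LSK arrays overlapped, at 4.108 to 7.502 in Parp-2-/- and 6.186 to 8.484 in WT. Ktn1, 39 genes before Parp2, was the only expressed one without overlap, at 0.32. Ktn1, Rnase2a and Rnase6 were named after their values were seen, and the others without overlap lay below the array median on every array.

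The genes nearest to Parp2 were looked at 1 by 1, up to 10 on each side. Rpph1, between Ccnb1ip1 and Parp2, averaged 9.43 in Parp-2-/- and 9.49 in WT LSK cells, and 9.23 in Parp-2-/- and 9.73 in WT MP cells, with overlapping arrays in both. Ttc5, on the far side of Ccnb1ip1, differed by 0.31 in LSK cells and -0.05 in MP cells. Klhl33 lay below the array median on all arrays and differed by 0.02 in MP cells. Apex1, the base excision repair nuclease next to Osgep, differed by 0.09 in LSK and -0.09 in MP cells, and Pip4p1 by 0.08 in LSK and -0.02 in MP cells. Rnase9, Rnase10 and Rnase11, the ribonuclease genes between Pnp and Rnase12, stayed below the array median on all 16 arrays and differed by between -0.12 and 0.0032 in MP cells. The 7 olfactory receptor genes beyond Ttc5, Olfr743 to Olfr749, were below the array median throughout, and Olfr750, next to Rnase12, differed by 0.04 in MP cells. All of these arrays overlapped between genotypes in both cell types.

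**Figure D3:**
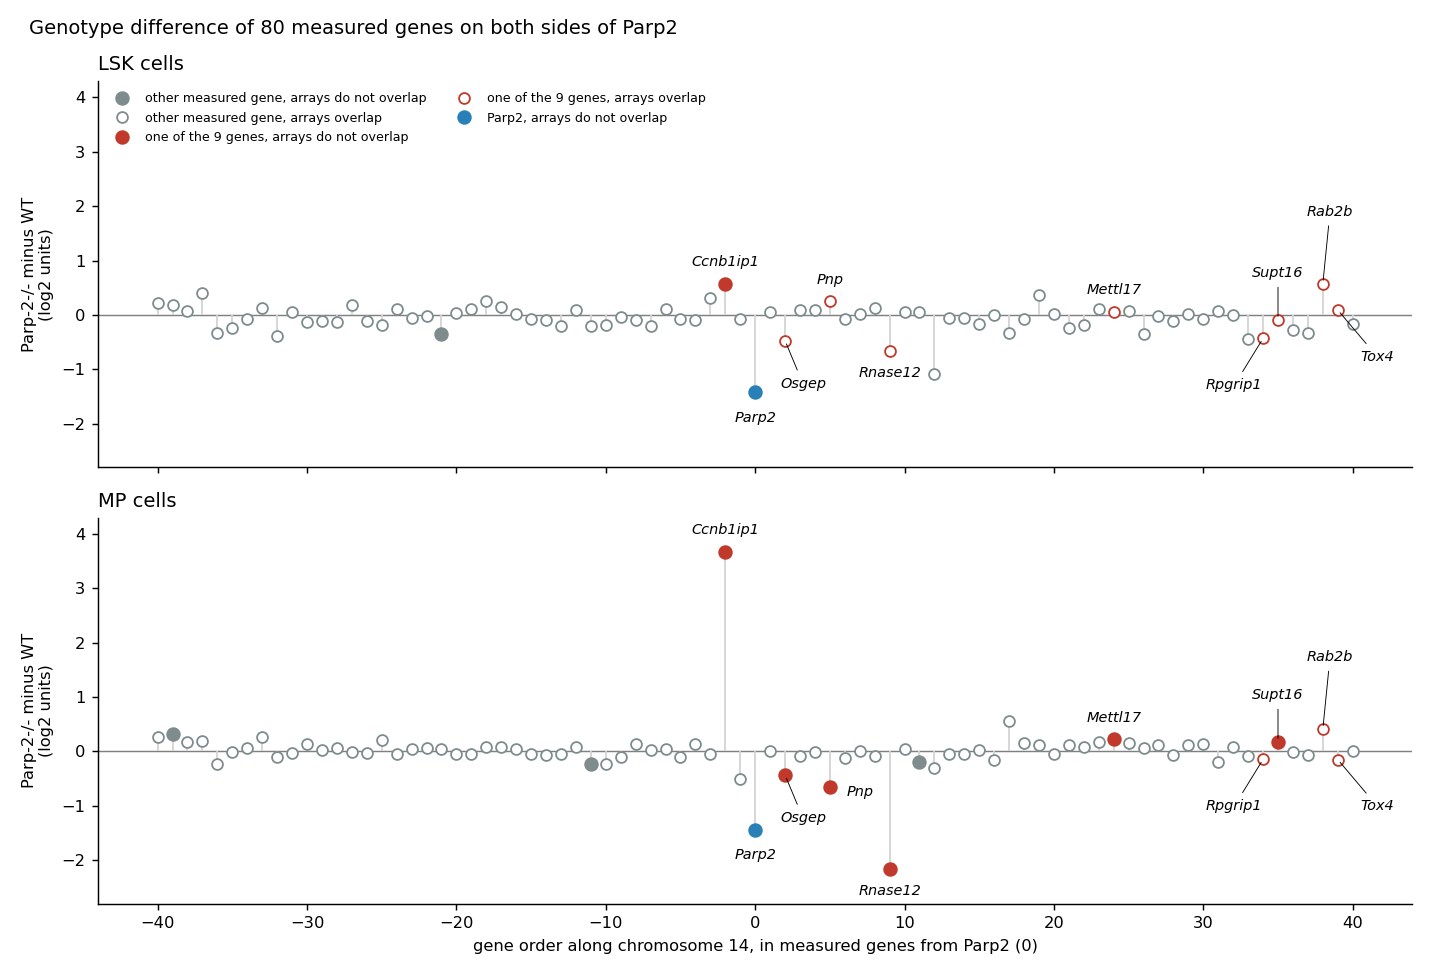
Genotype difference (Parp-2-/- minus WT, log2 units) of Parp2 and the 40 measured genes on each side of it, by gene order, in LSK cells (top) and MP cells (bottom). Filled points are genes whose 4 Parp-2-/- and 4 WT arrays do not overlap: Ccnb1ip1 and Rnase12 reach 3.67 and -2.17 in MP cells, while the 71 other genes stay between -1.08 and 0.40 in LSK cells and between -0.50 and 0.56 in MP cells.

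The radiation response was tested with the genotypes averaged, so that it does not use the contrast around which the genes were chosen. In LSK cells 0 of the 9 genes passed an adjusted p of 0.05 in limma, where 3.71% of all rows did (2.06% higher and 1.64% lower). An unadjusted limma p under 0.05 was found for 2 of the 9 and for 3539 of the 22961 tested rows. The differences of the 9 genes (irradiated minus unirradiated) ran between -0.46 and 0.59, with a median of 0.07 beside -0.01 over all rows. Osgep had the lowest adjusted p: it averaged 6.91 in irradiated Parp-2-/- and 7.31 in irradiated WT LSK cells, against 7.30 in unirradiated Parp-2-/- and 7.85 in unirradiated WT LSK cells, a difference of -0.46 ± 0.13 (SE; limma adjusted p = 0.082). Without unirradiated WT pool 1 it was -0.61 (limma adjusted p = 0.0167, within a range of 0.0167 to 0.608 over 25 settings).

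For 2 further genes a single array, and for Rpgrip1 the choice of genotype, moved the LSK response past the threshold. Rnase12 differed by 0.59 ± 0.36 (limma adjusted p = 0.494) and by 1.08 without irradiated WT pool 2 (0.0426, within 0.0426 to 0.919 over 23 settings). Tox4 differed by -0.46 ± 0.31 (limma adjusted p = 0.542) and by -0.91 without irradiated Parp-2-/- pool 2 (0.031, within 0.031 to 0.979 over 24 settings). Rpgrip1 differed by 0.30 ± 0.12 (limma adjusted p = 0.219), by -0.13 in Parp-2-/- pools alone and by 0.73 in WT pools alone (0.0479, within 0.0479 to 0.866 over 24 settings). The split by genotype was added after the data were seen. The test of the genotype by irradiation interaction in LSK cells gave -0.85 ± 0.23 for Rpgrip1 (limma adjusted p = 0.272), so a difference between the genotypes in its response was not shown. None of the 9 genes passed that test in limma, where 0.00871% of rows did. Its unadjusted limma p was under 0.05 for 1 of the 9 and for 2187 of the 22961 tested rows.

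In MP cells 0 of the 9 genes responded to radiation at an adjusted p of 0.05 in limma. Of all rows 1.94% did (1.4% higher and 0.536% lower). An unadjusted limma p under 0.05 was found for 2313 of the 22961 tested rows and for 1 of the 9 genes. This was Rpgrip1, at 5.17 and 5.49 in irradiated Parp-2-/- and 5.38 and 5.53 in irradiated WT pools, against 4.83 and 5.01 in unirradiated Parp-2-/- and 4.98 and 5.20 in unirradiated WT pools. The difference was 0.39 ± 0.12 (SE; limma adjusted p = 0.153). Ccnb1ip1 differed by -0.05 ± 0.14, and the genotype by irradiation interaction in MP cells was -0.29 ± 0.27 for it and called 0 of the 9 genes (0% of rows), with 0 at an unadjusted p under 0.05. The cell type by irradiation interaction called 0 of the 9 genes in limma as well (0% of rows), with 1, Osgep, at an unadjusted p under 0.05. Among the 22961 tested rows, 1503 had an unadjusted limma p under 0.05 in this interaction, and 199 in the MP interaction with genotype.

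Between the cell types, LSK cells had less Pnp and Supt16 than MP cells and more Rpgrip1. The tested value is LSK minus MP averaged over genotypes and irradiation states, and 39.3% of all rows passed in limma, 21.4% higher and 17.9% lower. Of the 9 genes 1 passed as higher, 3 as lower and 5 did not pass. In Parp-2-/- cells alone 4.29% of rows were higher and 8.7% lower, and in WT cells alone 6.74% were higher and 10.2% lower. Supt16 differed by -0.53 ± 0.07 (SE; limma adjusted p = 0.000209) and stayed past the threshold in all 23 alternative settings. Pnp differed by -0.96 ± 0.17 (limma adjusted p = 0.00144), by -0.51 in Parp-2-/- cells alone, where it did not pass (0.164), and by -1.41 in WT cells alone. Rpgrip1 differed by 0.42 ± 0.08 (limma adjusted p = 0.00254) and by 0.28 in Parp-2-/- cells alone, where it did not pass (0.122).

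Ccnb1ip1 differed by -1.22 ± 0.10 between LSK and MP cells (limma adjusted p = 9.68e-06), a value made by the Parp-2-/- MP arrays for which the gene stands out. In Parp-2-/- cells alone the difference was -2.77, and in WT cells alone it was 0.33 with all 8 arrays below the array median, so the pooled value is no separate result. Rnase12 also changed with the genotype used, with its highest group means in WT MP cells. It differed by 0.36 in Parp-2-/- cells alone, by -1.15 in WT cells alone and by -0.39 ± 0.25 over both (limma adjusted p = 0.211). Without irradiated WT LSK pool 1 the value over both was -0.64. The WT value uses the WT MP arrays of the genotype difference by which Rnase12 was chosen, so it is no separate result. Rnase12 exceeded the array median on only 1 LSK array, so these sizes are not measured. The other 4 genes did not pass: -0.45 for Tox4, -0.23 for Osgep, -0.08 for Mettl17 and 0.08 for Rab2b. Tox4 was at -0.67 without irradiated Parp-2-/- LSK pool 2 (limma adjusted p = 0.00406) and Osgep at -0.30 without unirradiated WT LSK pool 2 (0.016), and Osgep was at 0.05 after a further quantile normalization. The median over all rows was 0.12 as deposited and 0.03 after that normalization.

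**Figure D4:**
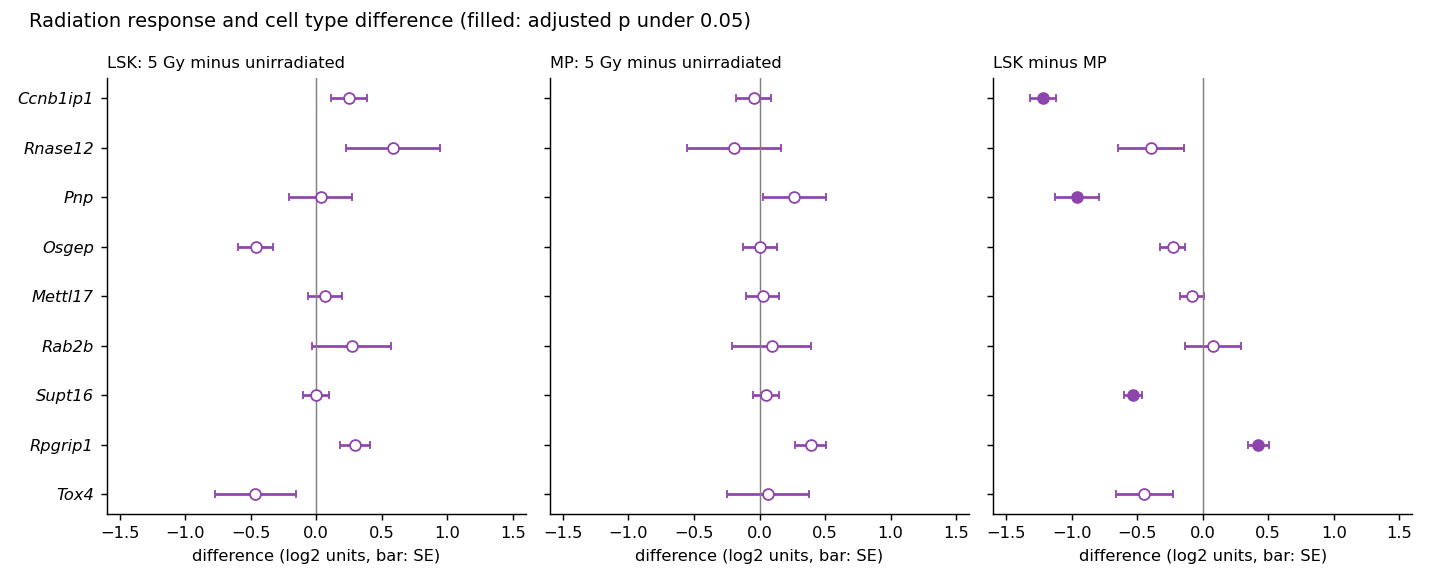
Differences of the 9 genes in log2 units with SE bars for irradiated minus unirradiated LSK cells (left), irradiated minus unirradiated MP cells (middle) and LSK minus MP cells (right), with filled points for a limma adjusted p under 0.05. No gene is filled for radiation, and Ccnb1ip1 (-1.22), Pnp (-0.96), Supt16 (-0.53) and Rpgrip1 (0.42) are filled between the cell types.

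The genes that work with the members were counted next, as 10 lists of 154 genes, 136 of them measured. By genotype 0 of the 136 passed in limma in LSK cells (0.0479% of all rows passed, 0.00871% higher and 0.0392% lower, and 18 of the 136 had an unadjusted p under 0.05). In MP cells 0 passed in limma (0.0131% of rows, 0.00871% higher and 0.00436% lower, with 2 of the 136 at an unadjusted p under 0.05). By genotype 2102 of the 22961 tested rows had an unadjusted limma p under 0.05 in LSK cells, and 440 in MP cells. The 19 measured meiotic crossover genes, the company Ccnb1ip1 keeps in the germ line, had a median genotype difference of 0.02 in MP cells, beside -0.005 over all rows. Its mitotic company, 12 genes of cyclin B and its partners, had a median of 0.07 in MP cells. Spo11, which makes the meiotic DNA breaks, and Msh4, of the crossover machinery, lay below the array median on all 16 arrays, in Parp-2-/- MP cells as well. The list was mixed, as Cntd1, Hspa2 and Trip13 lay below the median on 0 of the 16 arrays, Msh5 on 5 and Dmc1 on 7. The 13 other ribonuclease A family and inhibitor genes had a median of -0.05 in MP cells. The 5 measured genes of the KEOPS list, which serve transfer RNA modification, had one of 0.02, and the 16 purine genes beside Pnp one of 0.03.

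After radiation part of the cyclin B list fell in each cell type. Of its 12 measured genes, 5 were lower in LSK cells and 0 higher (3.71% of all rows passed in either direction), with a median of -0.45 beside -0.01 over all rows. In MP cells 4 were lower and 0 higher (1.94% of rows), with a median of -0.35. Plk1, the mitotic kinase, was at -2.05 in LSK and -1.65 in MP cells, and Cdc25c, the phosphatase that activates the cyclin B kinase, was at -1.59 in LSK and -1.02 in MP cells. Cdk1, that kinase itself, was at -0.77 in LSK and -0.67 in MP cells. Ccnb2, a B-type cyclin, was at -1.03 in LSK cells, and Cdc20, an activator of cyclin destruction, at -0.49 in MP cells (limma, highest adjusted p of these values 0.0267). Ccnb1ip1, set beside them, differed by 0.25 ± 0.14 in LSK and by -0.05 ± 0.14 in MP cells.

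In the other 9 lists 6 of 124 measured genes passed in LSK cells (4.84%, beside 3.71% of all rows) and 2 of 124 in MP cells (1.61%, beside 1.94%), both near the share of all rows. The LSK response passed in 1 gene upward, Hspa2 of the crossover list at 0.58, and in 5 downward: Rnase6 at -1.66, Spty2d1 of the histone chaperones at -1.05, Sar1a and Gorasp2 of the Golgi route at -0.98 and -0.60, and Iqcb1 of the ciliary list at -0.60. The MP response passed for Tctn1 of the ciliary list at 0.78 and for Mtap, a purine salvage enzyme, at -0.69 (limma, adjusted p of these 8 values between 0.0106 and 0.0441). The mitochondrial ribosome, KEOPS and PTW/PP1 lists had 0 genes past the threshold in limma in either cell type, with between 1 and 5 at an unadjusted p under 0.05. Such an unadjusted limma p was found for 3539 of the 22961 tested rows in LSK cells, and for 2313 in MP cells.

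Between the cell types 49 of the 136 partner genes were lower and 11 higher in LSK than in MP cells, beside 17.9% and 21.4% of all rows. That background holds many dim rows. Among the 12397 rows with a mean above that of the array medians, a split made after seeing the data, 31.7% were lower and 13.2% higher, and of the 103 partner genes among them 46 were lower (44.7%) and 5 higher (4.85%). The partners of Supt16 were among the lower ones, with 7 of 13 histone chaperone genes, such as Nasp at -0.82 and Asf1b at -0.75, both carriers of new histones. So were 9 of 19 mitochondrial ribosome genes (Ddx28 at -1.25, Tfb1m at -0.93), 7 of 12 cyclin B genes (Cdc25c at -1.21, Ccna2 at -0.82), 7 of 16 purine genes (Gda, which deaminates guanine, at -2.07, Ampd3 at -1.25), 5 of 17 Golgi route genes (Sar1b at -0.88), 5 of 14 ciliary genes (Cep290 at -0.85, Rpgr, the partner of Rpgrip1, at -0.67) and 3 of 5 KEOPS genes (Osgepl1 at -1.11). Rpgrip1 itself was higher in LSK cells, at 0.42. Higher genes included Tox, a relative of Tox4, at 1.36, while Ppp1ca and Ppp1cc, phosphatases of the Tox4 complex, were at -0.59 and -0.56. The highest limma adjusted p among these partner values was 0.00384. Rpgr lay below the array median on 11 of the 16 arrays, Ampd3 on 8, and Ddx28 and Gda on 5 each. Cdc25c and Osgepl1 did so on 4 each and Tox on 3, so the sizes of these differences are nominal.

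The genes whose levels followed Ccnb1ip1 most closely were ranked by Pearson r over the 16 arrays. Each gene entered by 1 row, the row of its symbol alone with the highest mean. Of these, the 10770 with a mean above that of the array medians were compared. Grb10, an adaptor of growth factor receptors, had the highest r (0.828), followed by Gm15760 (0.738), Mexis (0.726), Cdc42bpa (0.714), Arhgef12 (0.706), Kpna3 (0.704), Cd24a (0.699) and Sfxn2 (0.678). The median r over all compared rows was 0.07. The arrays share their groups, so these r describe a pattern, high in Parp-2-/- MP cells, and are given without a p. Grb10 averaged 5.67 in Parp-2-/- and 5.52 in WT LSK cells, and 6.38 in Parp-2-/- and 5.79 in WT MP cells. Kpna3, a nuclear import adaptor on chromosome 14, averaged 8.31 in Parp-2-/- and 7.92 in WT MP cells. Grb10 and Kpna3 were the only 2 of the 8 whose MP arrays did not overlap between genotypes, beside 2.11% of all tested rows. Ranking by likeness to Ccnb1ip1 favours such a gap, so nothing is read from this count. Among the 9 genes themselves the r with Ccnb1ip1 was 0.56 for Supt16, 0.55 for Mettl17 and -0.67 for Rnase12, and between -0.43 and 0.29 for the other 5.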

How the data were processed

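Total RNA of sorted bone marrow cells was measured on 16 Affymetrix Mouse Gene 1.0 ST arrays. The deposited values are log2 intensities per transcript cluster; RMA, affy 2.10, limma and R 2.15 are listed in the submitters' processing notes. The log base was read from the values. The sources used here give neither the genome build nor which arrays were normalized together. Of 34760 rows, 21640 carried 1 gene symbol by the platform annotation, 1321 several and 11799 none. The 22961 rows with a symbol were tested. The means of the 8 groups were fitted to the 16 arrays in limma 3.58.1 under R 4.3.3 (8 residual and 4.35 prior degrees of freedom, two-sided, Benjamini-Hochberg over the tested rows, called at an adjusted p under 0.05). It was tested on simulated data. No further scaling was applied, and the number of arrays limits the precision. The 9 genes, the 10 partner lists and the comparisons were chosen with earlier results of these data known. Named genes were the 9 genes and Parp2, the 10 nearest measured genes on each side of Parp2 and the 8 genes most like Ccnb1ip1. Up to 4 called members per list and comparison were added, and not all are printed. Spo11, Msh4, Msh5, Cntd1, Hspa2, Trip13, Dmc1, Ktn1, Rnase2a and Rnase6 were chosen after their values were seen. Alternatives were each cell type fitted alone, the pool number as a block, quantile normalization, a filter on dim rows, an intensity trend, all rows, and leaving out each array. Same-numbered pools of different groups did not deviate together (28 pairs of groups, r between -0.173 and 0.227, median 0.0045, 2 over 0.1), so the numbers were not taken as pairs. Start regions are from RefSeq on GRCm38.p6, with 1 window for each of the 9 genes and Parp2; of the 1-symbol rows 21553 matched RefSeq by Entrez identifier.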

Additional observations from a re-analysis of the deposited data

How the results depend on the processing

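In MP cells no genotype difference of the 9 genes changed sign in any alternative, and Ccnb1ip1 stayed between 3.45 and 3.81 and Rnase12 between -2.39 and -1.94. Many of these settings, such as leaving out an LSK array, cannot move an MP difference by construction. For genes without overlap, leaving out 1 MP array cannot reverse the sign either, so the steady signs are no support. In LSK cells Pnp changed sign in 1, Mettl17 in 2 and Tox4 in 3 of 22. The count of rows called by genotype was small and unsteady: 11 in LSK cells, against 0 with the 8 LSK arrays alone, 0 with an intensity trend, 0 with all rows, 7 with the pool number as a block, 17 with only rows above the mean of the array medians (bright rows), 21 after quantile normalization, and 0 to 62 when an array was left out. In MP cells it was 3, against 6 with the 8 MP arrays alone, 1 with all rows, and 1 to 3 without an array. The radiation count was 851 in LSK cells, against 190 with the LSK arrays alone, 337 in Parp-2-/- and 413 in WT cells (the split by genotype was chosen after seeing the data), and 634 to 935 without an array. It was 445 in MP cells, against 1163 with the MP arrays alone, 135 in Parp-2-/- and 154 in WT cells, and 231 to 503 without an array. The cell type count of 9022 became 4103 after quantile normalization, 5475 with bright rows (1586 higher and 3889 lower, against 4920 and 4102), 2982 in Parp-2-/- and 3882 in WT cells. The LSK interaction called 2 rows, against 0 with the LSK arrays alone, 0 with the pool block, 0 with bright rows, 1 with an intensity trend, 4 after quantile normalization, and 0 to 95 without an array; the cell type interaction called 0, and 0 to 11 without an array. The share of rows whose genotypes did not overlap rose with fewer arrays, by construction, to between 4.8 and 6.98% in LSK and between 3.77 and 6.92% in MP cells. Signs that turned were Rpgrip1 under radiation in Parp-2-/- LSK cells (-0.13), and, between cell types, Ccnb1ip1 in WT (0.33), Rnase12 in Parp-2-/- (0.36), Mettl17 in WT (0.0019), Rab2b in WT (-0.0033) and Osgep after quantile normalization (0.0473). Without single arrays Rab2b ranged between -0.11 and 0.27 between cell types, and Rnase12 between -0.42 and 0.0335 under radiation in MP cells and between -0.15 and 0.75 in the MP interaction. The pool block changed no call or direction among the 44 values of the 9 genes and Parp2 refitted with it. Of 980 alternative values of these genes and Parp2, 928 kept their direction and call. Apart from fewer arrays or rows, the cause of a change was not tested. Levels below the array median, among them Ccnb1ip1 outside Parp-2-/- MP cells and most of Rnase12, give no measured fold.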

Other observations

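Over the whole table, 5 genes had Parp-2-/- and WT arrays that did not overlap in both cell types and in the same direction, and 4 of them lie on chromosome 14. By rows, 0.0261% of those tested had no overlap of this kind. Among the 4 are Parp2, the targeted gene, and Ccnb1ip1, chosen by this contrast, so the count is a description. The others on that chromosome were Cysltr2, a leukotriene receptor (-1.42 in LSK and -0.68 in MP cells, with group means between 2.52 and 4.37), and Kpna3 (0.42 in LSK and 0.39 in MP cells). The Cysltr2 means lay below the lowest array median, 4.74, so the size of its difference is not measured. The gene on another chromosome was Psma5, a proteasome subunit on chromosome 3 (0.43 in LSK and 0.11 in MP cells).

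Of the 497 genes without overlap in LSK cells, 19 (3.82%) lay on chromosome 14, and of the 434 in MP cells 21 (4.84%) did, beside 3.52% of the 19855 genes with a chromosome. In LSK cells 13 of them differed by at least 1 log2 unit, and 2 of these, Parp2 and Cysltr2, were on chromosome 14. The Cysltr2 value is nominal, since its means lay below the array medians. In MP cells 4 reached that size: Ccnb1ip1, Rnase12, S100a8 and Parp2. Of these all but S100a8 are on chromosome 14, and they are the targeted gene and genes chosen by this contrast. The genes were named after their values were seen, and the counts have no test.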
